A study of Danio rerio with 18 samples.

Results

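The libraries described here are the 12 made from sorted retinal ganglion cells at 6 and 12 hours post injury (hpi), of 18 in the series, divided by how much isl2b mRNA they held. A library was placed by its isl2b level as CPM, the isl2b count scaled to the sum of all gene counts of the library. The members were thus chosen by a measured value, and what isl2b itself shows below is a description. Libraries at 100 CPM or more are called isl2b-rich (8 libraries) and those below 100 CPM isl2b-poor (4 libraries). Adult zebrafish of 3 to 5 months carrying the reporter isl2b:GFP had an optic nerve cut, and each library was made from 1000 GFP-positive cells sorted from dissociated eyes. Injured libraries came from eyes whose nerve was transected and control libraries from uninjured contralateral eyes, so both kinds carry the reporter and come from operated fish. Each of the 6 groups (injured and control at 6, 12 and 24 hpi) has 3 libraries here, and the labels mention 5 operated replicates for each time. The labels do not say that the replicates are separate animals, so the p-values given below measure only the spread between these samples.

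Retinal ganglion cells are the output neurons of the eye: they receive input from bipolar and amacrine cells in the retina and send their axons through the optic nerve to the brain. Isl2b is a LIM-homeodomain transcription factor of these cells in fish, and rbpms2a and rbpms2b encode RNA-binding proteins used to mark them in several vertebrates. In zebrafish, ganglion cells survive the cutting of their axons well and regrow them. In bulk RNA, fewer ganglion cells in a library and less of these RNAs per ganglion cell cannot be told apart.

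The isl2b-rich set held injured 6 hpi replicate 2 (279 CPM), injured 12 hpi replicates 2 and 3 (136 and 334 CPM), control 6 hpi replicates 1 to 3 (141, 296 and 212 CPM) and control 12 hpi replicates 1 and 3 (265 and 199 CPM). The isl2b-poor set held injured 6 hpi replicates 1 and 3 (19.5 and 61.7 CPM), injured 12 hpi replicate 1 (11.2 CPM) and control 12 hpi replicate 2 (34.2 CPM). The library just inside the limit had 136 CPM and the one just outside had 61.7 CPM, so no library lay near 100 CPM. Of the 6 injured libraries 3 were isl2b-rich, and of the 6 control libraries 5 were. The 2 sets therefore differ in their share of injured eyes, and injury and isl2b content cannot be fully told apart in a comparison of the sets. In 3 of the 4 labelled groups both kinds occurred (injured 6 hpi, injured 12 hpi and control 12 hpi), which gave a comparison inside a group.

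The other marker genes of ganglion cells followed isl2b. Rbpms2a had 167, 247 and 378 CPM (lowest, median and highest) in the isl2b-rich libraries, against 40.0, 49.5, 33.8 and 41.3 CPM in the 4 isl2b-poor libraries (injured 6 hpi replicates 1 and 3, injured 12 hpi replicate 1 and control 12 hpi replicate 2, the order used throughout). Rbpms2b had 257, 325 and 536 CPM in isl2b-rich libraries and 75.3, 92.8, 48.8 and 91.8 CPM in isl2b-poor libraries. For both genes every isl2b-rich library lay above every isl2b-poor one. The difference of mean log2(CPM + 1), isl2b-rich minus isl2b-poor, was 2.52 for rbpms2a and 2.18 for rbpms2b, and 3.03 for isl2b itself, which chose the sets. Inside the labelled groups the rbpms2a difference was 2.37 in injured 6 hpi, 2.84 in injured 12 hpi and 2.30 in control 12 hpi. The isl2b gene lies at chr7:29992889-29997444 on the plus strand, rbpms2a at chr25:6122823-6153077 on the plus strand and rbpms2b at chr7:48252638-48263633 on the minus strand, as the deposited tables give them, with GRCz11 named as the build in the submitters' processing notes.

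**Figure D1:**
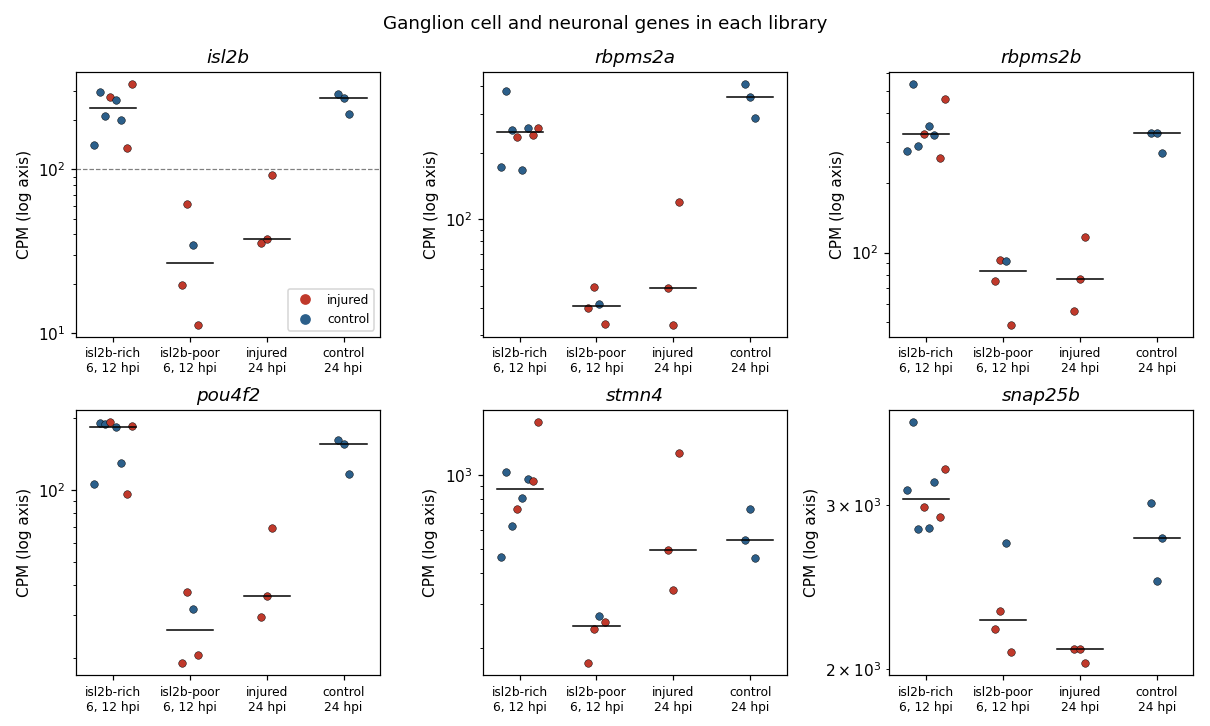
CPM of isl2b, rbpms2a, rbpms2b, pou4f2, stmn4 and snap25b in each library on a log axis, for the isl2b-rich and isl2b-poor libraries of 6 and 12 hpi and for injured and control libraries of 24 hpi, which the rule did not use. Each point is a library (red injured, blue control), bars are medians and the dashed line marks 100 CPM. The neuronal gene snap25b, at 2829 to 3678 CPM in isl2b-rich and 2085 to 2729 CPM in isl2b-poor libraries, differs least of the genes shown.

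Total counts were 16979745 to 28329194 in isl2b-rich and 17442365 to 27889895 in isl2b-poor libraries, so depth overlapped. The number of genes with a count did not overlap, at 17606 to 18651 in isl2b-rich and 17244 to 17487 in isl2b-poor libraries. The 50 most abundant genes took 28.3 to 37.7% of counts in isl2b-rich and 35.5 to 41.2% in isl2b-poor libraries. Rod photoreceptor genes were present in every library: 26 of them took 14.2 to 23.3% of counts (median 17.7%) in isl2b-rich and 20.8 to 26.5% (median 25.4%) in isl2b-poor libraries. The labels call the sorted cells retinal ganglion cells, and rod transcripts were thus a large part of all libraries in both sets. One isl2b-poor library, injured 6 hpi replicate 1, is marked as trimmed in its file header. Each library name holds a letter code and an S number, and some S numbers occur in 2 libraries, so the names were read as 2 runs of codes and numbers. What the runs stand for is not in the labels. The 2 libraries of the smaller name set among the 12 (control 6 hpi replicates 2 and 3) were both isl2b-rich. The part of these features in the differences below was not tested.

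Across the other genes, the contrast ran almost wholly one way. Of 8607 genes with a median of at least 10 CPM in either set, 320 were higher in isl2b-rich libraries by a rule of no overlap between the sets and a difference of at least 1 on the log2 scale (3.72% of genes), and 0 were lower by the same rule. Because measured isl2b chose the sets, these counts are a description and carry no test. The 320 genes had a median difference of 1.59 and a highest one of 3.96, against a median of 0.15 over all 8607 genes. Of them, 82 differed by 2 or more and 5 by 3 or more. All 320 had a positive difference inside each of the 3 labelled groups that held both kinds. The rule of no overlap fixes this in advance, so it is no separate check on injury or time. Scaling by TMM factors moved the median of all genes by −0.21, to −0.06, and left 228 genes in the higher group. A limit of 50 CPM of isl2b in place of 100 gave 147 genes, of which 108 were among the 320. A limit of 200 CPM gave 51, of which 33 were. Without the trimmed library and the smaller set of library names the number was 311.

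The largest difference was that of cart3, a member of the CART family of neuropeptide precursors, with 10.3, 29.9 and 51.2 CPM (lowest, median, highest) in isl2b-rich libraries and 0.256, 0.461, 1.04 and 1.15 CPM in isl2b-poor ones. The difference was 3.96 on the log2(CPM + 1) scale, and the poor libraries were all near or below 1 CPM. Dkk1a, a secreted inhibitor of Wnt signalling, had 24.8, 47.6 and 79.0 CPM in isl2b-rich and 2.39, 12.9, 3.16 and 1.78 CPM in isl2b-poor libraries, a difference of 3.27. Among the poor libraries injured 6 hpi replicate 3, the one with the most isl2b, also had the most dkk1a. Calb2a, which encodes the calcium-binding protein calretinin, had 41.1, 84.2 and 145 CPM in isl2b-rich and 7.002, 6.14, 13.1 and 11.8 CPM in isl2b-poor libraries, a difference of 3.07.

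The other genes among the 15 largest differences were ppp1r1c (3.26), a regulatory subunit of protein phosphatase 1, chrnb5a (3.11), ndnfl (2.97), zgc:158291 (2.92), si:ch211-149b19.2 (2.80), gpr22b (2.80), ano11 (2.74), cplx2l (2.71), chrnb3b (2.69), grin1a (2.64), syt2a (2.61) and adcyap1b (2.59). Chrnb5a and chrnb3b encode nicotinic acetylcholine receptor subunits, and grin1a the obligatory subunit of NMDA receptors. Cplx2l, a complexin, and syt2a, a synaptotagmin, belong to the machinery of transmitter release. Adcyap1b encodes the neuropeptide PACAP. Cplx2l had 153, 242 and 346 CPM in isl2b-rich libraries against 44.6, 55.7, 32.1 and 18.8 CPM in isl2b-poor ones. Grin1a had 75.7, 105 and 208 CPM in isl2b-rich libraries against 13.1, 18.2, 10.97 and 29.4 CPM in isl2b-poor ones. For both the sets stood well apart.

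**Figure D2:**
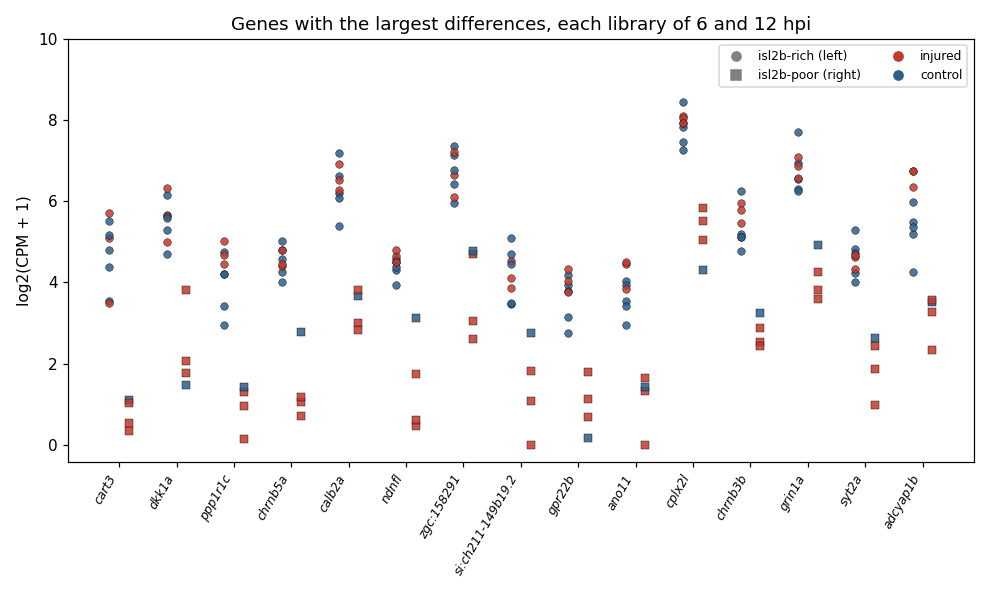
Level of the 15 genes with the largest differences as log2(CPM + 1) in each library of 6 and 12 hpi, with isl2b-rich libraries as circles on the left of each gene and isl2b-poor libraries as squares on the right (red injured, blue control). No square reaches the circles of its gene; the difference of means is 3.96 for cart3 and 2.59 for adcyap1b.

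Of 31 ganglion cell transcription factor genes in the tables, 19 other than isl2b reached 10 CPM in a set, and 10 of them were higher in isl2b-rich libraries by the rule given above, with 0 lower and a list median of 1.79. By that rule 3.72% of all genes were higher. A gene may reach 10 CPM through the isl2b-rich set alone, so the count is a description. The 3 class 4 POU factors, which act in ganglion cell differentiation and axon growth in mice, were all among the 10. Pou4f2 had 96.1, 184 and 192 CPM in isl2b-rich and 18.999, 37.7, 20.5 and 31.8 CPM in isl2b-poor libraries, a difference of 2.51. Pou4f1 had 12.4, 15.9 and 29.8 CPM in isl2b-rich and 4.14, 5.38, 1.36 and 2.81 CPM in isl2b-poor libraries, a difference of 2.14. Pou4f3 had 24.4, 37.4 and 49.4 CPM in isl2b-rich and 15.3, 9.29, 6.06 and 12.0 CPM in isl2b-poor libraries, a difference of 1.72. No isl2b-poor library reached the lowest isl2b-rich one for any of the POU factors. The others of the 10 were isl2a, the Iroquois homeobox genes irx2a, irx3a and irx4a, barhl2 and the Kruppel-like factors klf7a and klf7b.

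The other transcription factors of the list at 10 CPM or more in a set did not meet the rule. Isl1, which bipolar and amacrine cells express too, had 221, 254 and 404 CPM in isl2b-rich and 129, 179.6, 135 and 243 CPM in isl2b-poor libraries, a difference of 0.71, and the sets overlapped. The proneural gene atoh7 differed by 0.93, foxp2 by 0.61, mafaa by 1.13, tbr1b by 1.05 and eomesa by 1.31, all with overlap. Irx1a, irx4b and ebf1b had larger differences (2.32, 2.11 and 1.79) but also overlapped, and had medians of 19.2, 10.9 and 14.9 CPM in isl2b-rich libraries.

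Of the ganglion cell list of RNA-binding proteins, 4 of 7 genes were higher in isl2b-rich libraries: rbpms2a, rbpms2b, elavl3 (1.86) and elavl4 (1.41). Elavl3 and elavl4 are pan-neuronal Hu proteins. Of the cytoskeleton and axon growth list, 17 of 22 genes were higher, with a list median of 1.69. Over all genes the share was 3.72%. In both lists a gene may reach 10 CPM through the isl2b-rich set alone, so these counts are a description. Stmn4, a stathmin that binds tubulin, had 468, 880.1 and 1637 CPM in isl2b-rich libraries and 173, 238, 253 and 268 CPM in isl2b-poor libraries, a difference of 1.88. Uchl1, a neuronal ubiquitin hydrolase, had 222, 308 and 502 CPM in isl2b-rich and 57.0, 91.1, 79.3 and 84.6 CPM in isl2b-poor libraries, a difference of 2.04. Inab, an internexin of neuronal intermediate filaments, had 128, 197 and 254 CPM in isl2b-rich and 38.7, 43.9, 35.1 and 39.3 CPM in isl2b-poor libraries, a difference of 2.27. Gap43, the growth-cone protein of regrowing axons, missed the rule: it had 106, 138 and 295 CPM in isl2b-rich and 23.7, 54.6, 111 and 57.7 CPM in isl2b-poor libraries, and the 111 CPM of injured 12 hpi replicate 1 reached into the isl2b-rich range.

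Of the list of transmitter, synuclein and surface genes, 11 of 23 were higher in isl2b-rich libraries, with a list median of 1.51. Slc17a6b, the vesicular glutamate transporter that loads ganglion cell terminals, had 20.4, 30.6 and 53.1 CPM in isl2b-rich and 6.32, 12.7, 6.74 and 19.3 CPM in isl2b-poor libraries, a difference of 1.51. The adhesion molecules alcamb (2.52) and alcama (1.62), the surface protein islr2 (1.93), the second calretinin gene calb2b (2.28), the synuclein sncga (1.61) and the neuritin nrn1a (1.80) were of this list as well. Over the 4 ganglion cell lists together, 71 of 97 genes with a row in the tables reached 10 CPM in a set, which a gene may do through the isl2b-rich set alone. Of these 71, 42 were higher and 66 had a positive difference, where 3.72% of all genes met the rule. The lists were assembled with earlier results of these data known, so these counts describe them and are no independent support. Without isl2b, the 4 lists together took 0.708 to 1.35% of counts in isl2b-rich libraries and 0.302 to 0.426% in isl2b-poor libraries.

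Gene families were looked up by name after values were seen, and their counts are given among members at 10 CPM or more in a set and among all members in the tables. Over all genes at that level 3.72% were among the 320. A member may reach the level through the isl2b-rich set alone, so the family counts are a description and no independent support. Nicotinic receptor subunits had 5 of 6 among the 320, of 22 in the tables (chrnb5a, chrnb3b, chrna6, chrnb5b and chrnb3a). AMPA receptor subunits had 3 of 4, of 8 in the tables (gria4a, gria2b and gria3b), and NMDA receptor subunits 2 of 3, of 12 in the tables (grin1a and grin2ab). Stathmins had 6 of 7, all 7 being at that level, tubulins 8 of 12, of 16 in the tables, and the Rbfox splicing factors 3 of 3, of 5 in the tables. Voltage-gated sodium channel subunits had 3 of 7, of 14 in the tables, with a median difference of 0.41, and glycine receptor subunits 2 of 4, of 7 in the tables, with a median of 0.68. Of 25 connexins 0 reached 10 CPM in a set. Rbfox1 had a median of 66.3 CPM in isl2b-rich and 16.6 CPM in isl2b-poor libraries, rbfox2 medians of 17.99 and 4.86 CPM, and rbfox3a, known as NeuN in mammals, medians of 18.3 and 6.15 CPM in the same order. Iroquois genes had 4 of 7, of 11 in the tables, and the fibroblast growth factor homologous factors, which bind sodium channels, 3 of 4, of 7 in the tables (fgf12a, fgf13a and fgf13b). Axon guidance and trophic genes among the 320 included slit2, with medians of 31.2 CPM in isl2b-rich and 5.94 CPM in isl2b-poor libraries, and the neurotrophin receptor ntrk3b, with medians of 18.6 and 3.07 CPM.

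Some members of the ganglion cell lists had differences near 0. The internexin inaa had 81.0, 129 and 210.0 CPM in isl2b-rich and 152, 180.0, 128 and 127 CPM in isl2b-poor libraries, a difference of −0.18 where its paralog inab had 2.27. Crmp1 (−0.07), robo3 (−0.22), ncam1b (−0.20), slc17a7a (0.02), sncb (0.13) and celf3a (0.25) were also near the median of all genes. The same contrast between paralogs held for the SNARE protein SNAP-25. Snap25a had 540.2, 708 and 994 CPM in isl2b-rich and 224, 265, 145 and 196 CPM in isl2b-poor libraries, a difference of 1.82. Snap25b had 2829, 3046 and 3678 CPM in isl2b-rich and 2208, 2311, 2085 and 2729 CPM in isl2b-poor libraries, a difference of 0.41. Reads that paralogs share could be split between them by the counting, which is not given in the sources used here.

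Genes shared by many neurons had list medians between those of the ganglion cell lists and the 0.15 of all genes. By the rule 3.72% of all genes were higher. Of synaptic vesicle and SNARE genes 6 of 19 were higher in isl2b-rich libraries (the synapsin genes syn1 and syn2a, snap25a and syt2a among them), with a list median of 0.64. Of ion channel and pump genes of neuronal excitability 4 of 9 were higher, with a list median of 0.86. They were the sodium channel subunits scn4ba (2.59) and scn8aa (1.15), the fast potassium channel kcnc1a (2.38) and the pump subunit atp1b3a (1.40). The pump subunit atp1a3b differed by −0.10. Of axonal transport motors 1 of 11 was higher, the kinesin kif3cb (2.02), and the list median was 0.60.

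**Figure D3:**
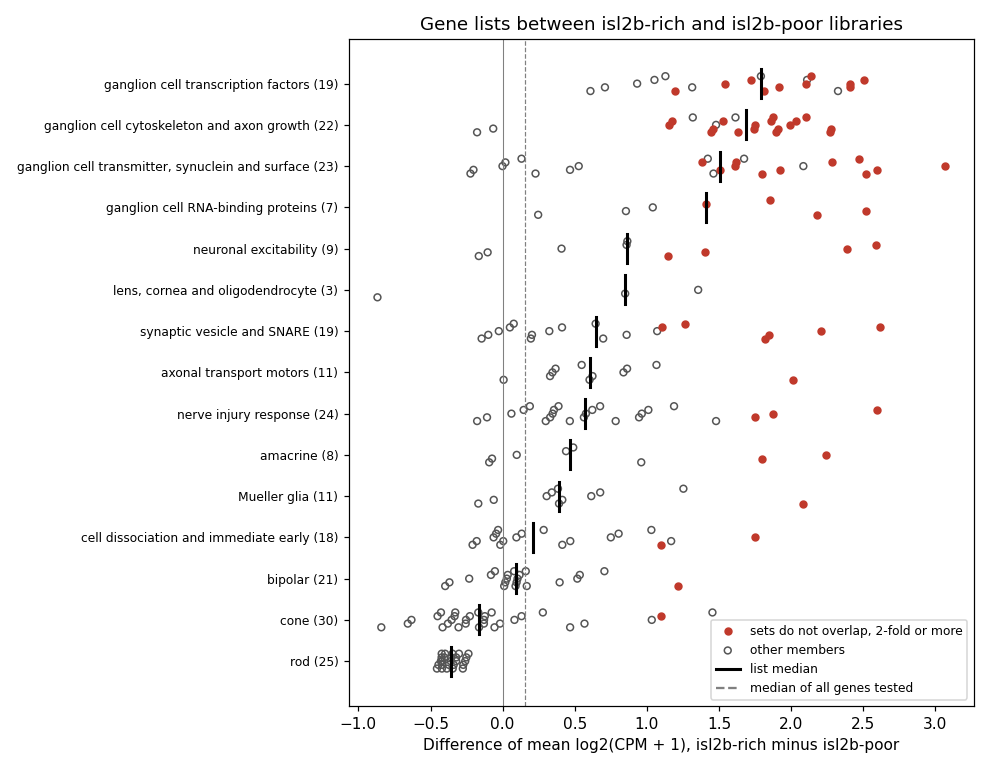
Difference of mean log2(CPM + 1) between isl2b-rich and isl2b-poor libraries for each member of the gene lists with at least 3 members at 10 CPM or more in a set, the number in parentheses counting them. Filled points are genes whose sets do not overlap with a difference of 1 or more, bars are list medians (1.79 for ganglion cell transcription factors, −0.36 for rods) and the dashed line is the median of all genes (0.15).

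Lists of other retinal neurons held few genes that met the rule, which 3.72% of all genes met. Of 25 rod genes 0 were higher by the rule and 0 lower, but all 25 had a negative difference, from −0.46 to −0.24, with a median of −0.36. The rod median was −0.58 with TMM factors, which shift all genes by −0.21. Cone genes had a median of −0.17 with 1 of 30 higher, the transcription factor gene tbx2a (1.098), and bipolar genes a median of 0.09 with 1 of 21 higher, the G protein subunit gng13b (1.22). The bipolar median turned to −0.12 with TMM factors. Gng13b had 322, 372 and 528 CPM in isl2b-rich and 145, 145, 159 and 216 CPM in isl2b-poor libraries, apart from the rest of its list.

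Of 8 amacrine genes 2 were higher in isl2b-rich libraries, meis2b (2.24) and pax10 (1.80), with a list median of 0.46. That is a larger share than the 3.72% of all genes, from a short list. Amacrine genes took 0.0158 to 0.0687% of counts (median 0.0339%) in isl2b-rich libraries. In isl2b-poor libraries they took 0.0131 to 0.0216% (median 0.0189%). The inhibitory markers gad1b (0.10), gad2 (0.44), slc6a1b (−0.09) and slc6a9 (−0.07) all overlapped. Of 11 Mueller glia genes 1 was higher, the intermediate filament gene vim (2.08), with a list median of 0.39. Glutamine synthetase glula differed by 0.30 and fabp7a by −0.17. Vim is also expressed by neurons with growing axons, and whether its RNA here came from glia was not tested.

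Few genes of cells from outside the neural retina reached 10 CPM. Of 29 macrophage and microglia genes 1 (hexb, −0.16) reached 10 CPM in a set, c1qa was at 0 in all 12 libraries, and the list took 0.00298 to 0.0284% of counts in isl2b-rich and 0.00408 to 0.00592% in isl2b-poor libraries. Of T cell, B cell and granulocyte genes 0 reached 10 CPM, and cd8a and lck were at 0 in all 12 libraries. Of 2 endothelial genes that did, cldn5b was higher in isl2b-rich libraries (2.31), with 3.44, 12.6 and 41.6 CPM there and 0.640, 2.57, 1.69 and 1.66 CPM in isl2b-poor libraries, and cdh5 differed by 0.66 with overlap. Erythrocyte (1 gene), horizontal cell (2), pigment epithelium (2) and lens, cornea and oligodendrocyte genes (3) had none that met the rule, with medians of 0.38, −0.09, 1.13 and 0.85. Cell dissociation and immediate early genes had a median of 0.21 with 2 of 18 higher, egr1 (1.097) and fosab (1.75), where 3.72% of all genes were. The heat shock gene hsp70l differed by −0.11. Ribosomal protein genes (median 0.17, 0 of 79) and genes of the mitochondrial chromosome (median 0.05, 0 of 13), both added after values were seen, lay close to the median of all genes.

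No gene was lower by 1 or more without overlap, and 10 genes (0.116% of 8607) were lower without overlap at smaller differences, against 569 (6.61%) that were higher without overlap. These counts depend on scaling to column totals, by which 6653 genes had a difference above 0 and 1954 below. With TMM factors 3487 were above 0 and 5120 below. These 10 were named after their values were seen. The largest of them was tdrd7b (−0.62), with medians of 47.3 CPM in isl2b-rich and 67.4 CPM in isl2b-poor libraries, followed by LO017648.1 (−0.49), baiap2l1b (−0.47), zgc:92107 (−0.43) and the monoamine oxidase gene mao (−0.39). None of the 25 rod genes was among them.

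The 24 hpi libraries, which the rule did not use, gave a look at the same genes in other samples. There isl2b was 35.5, 37.4 and 92.5 CPM in the 3 injured libraries and 289, 275 and 217 CPM in the 3 controls, so all injured libraries were below 100 CPM and all controls above it. Injury and isl2b content cannot be told apart at this time point. With edgeR's quasi-likelihood test over 17526 genes and Benjamini-Hochberg adjustment, 0 genes passed an adjusted p of 0.05 for injured against control at 24 hpi. An unadjusted p under 0.05 was found for 594 genes higher (3.39%) and 891 genes lower in injured libraries, and DESeq2 called 201. Of the 320 genes, 287 had a negative log2 fold change (89.7%), against 41.5% of the 8607 genes of the comparison and 48.3% of all genes. An unadjusted p under 0.05 with a lower level in injured libraries was found for 130 of the 320 (40.6%), against 5.33% of the 8607 genes and 5.08% of all genes. The test estimated the spread from all 18 libraries, the 12 that chose the 320 included. These p-values thus do not come from other samples alone, and how much this matters was not tested. All 3 injured libraries lay below all 3 controls for 198 of the 320 (61.9%), against 13.6 and 12.1%. The median log2 fold change of the 320 was −0.95 and that of the 8607 was 0.06.

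Single genes at 24 hpi had the same order as between the sets, without passing the adjusted threshold. Rbpms2a had 49.0, 33.5 and 119 CPM in injured and 408, 358 and 287 CPM in control libraries, a log2 fold change of −2.27 ± 0.73 (SE, edgeR adjusted p = 0.37). Calb2a had 7.29, 6.86 and 37.2 CPM in injured and 181, 113 and 192 CPM in control libraries, a log2 fold change of −3.14 ± 1.02 (edgeR adjusted p = 0.374). Pou4f3 had 10.3, 3.47 and 5.39 CPM in injured and 29.4, 39.3 and 43.0 CPM in control libraries, a log2 fold change of −2.42 ± 0.64 (edgeR adjusted p = 0.242). Injured replicate 3 was the highest injured library for rbpms2a and calb2a, as it was for isl2b. The ganglion cell transcription factors, isl2b included, took 0.0356 to 0.0526% of counts in injured and 0.0877 to 0.121% in control libraries at 24 hpi. The cytoskeleton and axon growth genes took 0.258, 0.278 and 0.533% in injured replicates 1, 2 and 3 and 0.345 to 0.469% in control libraries. The overlap thus came from injured replicate 3 alone. That library is of the smaller name set, as is control replicate 1 of 24 hpi. Between isl2b-rich (0.339 to 0.783%) and isl2b-poor libraries (0.146 to 0.195%) the shares did not overlap.

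A minority of the 320 genes went the other way at 24 hpi: 33 did not have a negative log2 fold change, and 1 of them, stmn4l, had an unadjusted p under 0.05. Stmn4l had 187, 125 and 494 CPM in injured and 114, 116 and 64.0 CPM in control libraries, a log2 fold change of 1.57 ± 0.58 (edgeR adjusted p = 0.467). Adcyap1b had 116, 84.2 and 431 CPM in injured and 66.2, 79.5 and 71.5 CPM in control libraries, a log2 fold change of 1.64 ± 0.91 (edgeR adjusted p = 0.655). For both genes every injured library lay above every control, although those injured libraries had little isl2b. They were the only 2 of the 320 with this order, which 3.83% of all genes had. Injured replicate 3 was the highest library for both, at 494 and 431 CPM. The lowest injured libraries (125 and 84.2 CPM) lay close to the highest controls (116 and 79.5 CPM). With 1 library left out, the log2 fold change of adcyap1b ran from 0.60 to 2.01. Stmn4 (0.36), tubb5, tuba8l3, elavl4 and fosab were also among the 33. At the earlier times the test used the libraries that chose the genes, so its values are a description: 318 of the 320 had a negative log2 fold change at 6 hpi (51.8% of all genes and 47.9% of the 8607), where 2 of 3 injured and 0 of 3 control libraries were isl2b-poor, and 127 did at 12 hpi (49.7% of all genes and 51.7% of the 8607), where 1 library of each was. The median of the 320 was −0.75 at 6 hpi and 0.10 at 12 hpi.

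**Figure D4:**
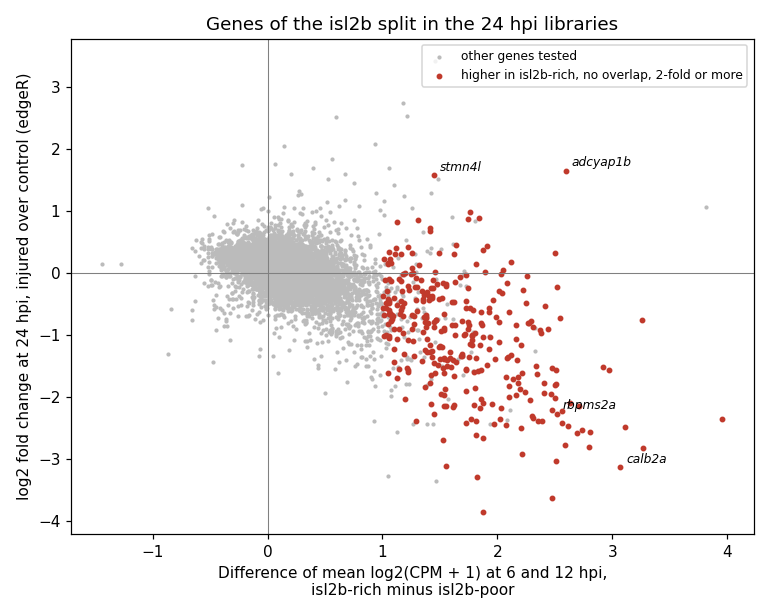
Each point is a gene, with the difference between isl2b-rich and isl2b-poor libraries of 6 and 12 hpi on the x axis (log2) and the log2 fold change of injured over control libraries at 24 hpi from edgeR on the y axis. Of the 320 genes higher in isl2b-rich libraries (red) 287 lie below 0 at 24 hpi, where all injured libraries were below 100 CPM of isl2b, and stmn4l and adcyap1b lie above.

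Between the isl2b-rich and isl2b-poor sets, nerve injury genes had a median difference of 0.57, against 0.15 over all genes. The sets differ in their share of injured libraries. In injured libraries alone the median was 1.05, and in control libraries alone, with 1 isl2b-poor library, it was 0.19. Of 24 nerve injury genes 22 were above 0 and 3 were higher by the rule (adcyap1b, emb and fosab), which 3.72% of all genes met. Nerve injury genes were then read inside each set, where injured and control libraries had isl2b in the same range. This comparison was added after the values were seen and has no test. Among the 8 isl2b-rich libraries, 3 injured and 5 control, 23 of 8878 genes (0.259%) were higher in injured libraries by no overlap and a difference of at least 1, and 0 were lower. Of the 26 nerve injury genes at 10 CPM or more there 6 were among the 23: atf3, adcyap1b, fosab, fosl1a, junba and stat3. The median difference of the 26 genes was 0.58, against −0.01 over all genes. A gene may reach 10 CPM there through the injured libraries alone, and the list was assembled with earlier results of these data known. These values thus describe the list and are no independent support. Among the 4 isl2b-poor libraries, 3 injured and 1 control, 0 of 21 nerve injury genes were higher by that rule, where 0.413% of genes were, 1 was lower, where 4.01% of genes were, and their median difference was −0.13, against −0.19 over all genes. That set has 1 control library, so its contrast rests on it.

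Atf3, a stress-induced transcription factor switched on in injured neurons, had 260.1, 386 and 389.7 CPM in the injured isl2b-rich libraries (lowest, median, highest), against 76.7, 127 and 135 CPM in the 5 control isl2b-rich libraries. In isl2b-poor libraries atf3 had 171, 175 and 206 CPM in the 3 injured and 125 CPM in the control, so the injured ones were higher there too, by less. Between the isl2b-rich and isl2b-poor sets atf3 differed by 0.06, below the 0.57 median of its list. The isl2b-rich set held 3 injured and 5 control libraries and the isl2b-poor set 3 and 1. Injury thus enters this value, and its part was not tested. Stat3, the transcription factor downstream of JAK kinases, had 19.9, 28.9 and 38.3 CPM in injured and 7.83, 10.6 and 16.6 CPM in control isl2b-rich libraries. In isl2b-poor libraries stat3 had 5.27, 6.80 and 10.4 CPM in the injured and 4.24 CPM in the control library. Injured isl2b-rich libraries thus stood above all other libraries of 6 and 12 hpi for atf3 and stat3. Fosab, an AP-1 subunit, had 235, 257 and 331 CPM in injured and 78.3, 102 and 125 CPM in control isl2b-rich libraries, against 32.9, 46.8 and 58.8 CPM in injured and 39.3 CPM in control isl2b-poor ones. Adcyap1b had 80.9, 106 and 106 CPM in injured and 18.2, 39.9 and 62.5 CPM in control isl2b-rich libraries, against 4.07, 8.67 and 10.8 CPM in injured and 10.4 CPM in control isl2b-poor ones. For fosab and adcyap1b the control isl2b-poor library lay within the range of the injured ones.

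Fosl1a and junba are AP-1 subunits too. The other genes of the 23 included mych, a Myc family gene (8.65 to 24.7 CPM in injured and 0.0492 to 4.21 CPM in control isl2b-rich libraries), the chemokine gene cxcl12b (4.58 to 15.5 CPM and 0.294 to 2.19 CPM in the same order), stmn4l (209 to 569 CPM and 94.9 to 179.7 CPM) and nefma, the neurofilament medium chain (17.4 to 34.4 CPM and 6.48 to 15.7 CPM). Genes of the injury list that were not among them included sox11a, with 244, 249 and 339 CPM in injured and 184, 236 and 255 CPM in control isl2b-rich libraries, jak1, with 67.6, 95.2 and 98.7 CPM against 65.8, 75.8 and 106 CPM, and vmp1, with 33.0, 39.1 and 44.2 CPM against 33.4, 40.0 and 46.7 CPM. For these 3 genes injured and control libraries overlapped. The 3 injured libraries were 1 of 6 hpi and 2 of 12 hpi, and the 5 control ones 3 and 2, so time was not held fixed. Without the libraries of the smaller name set the number of genes higher was 34. At 12 hpi alone, with 2 libraries on each side, it was 69, of which 11 were among the 23. Leaving out 1 library gave 1 to 8 genes lower, where none was with all libraries, and 23 to 57 genes higher. The injured libraries gave the highest numbers. There were 37 without replicate 2 of 6 hpi, 45 without replicate 2 of 12 hpi and 57 without replicate 3 of 12 hpi. Of these, 15, 22 and 20 were among the 23.

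**Figure D5:**
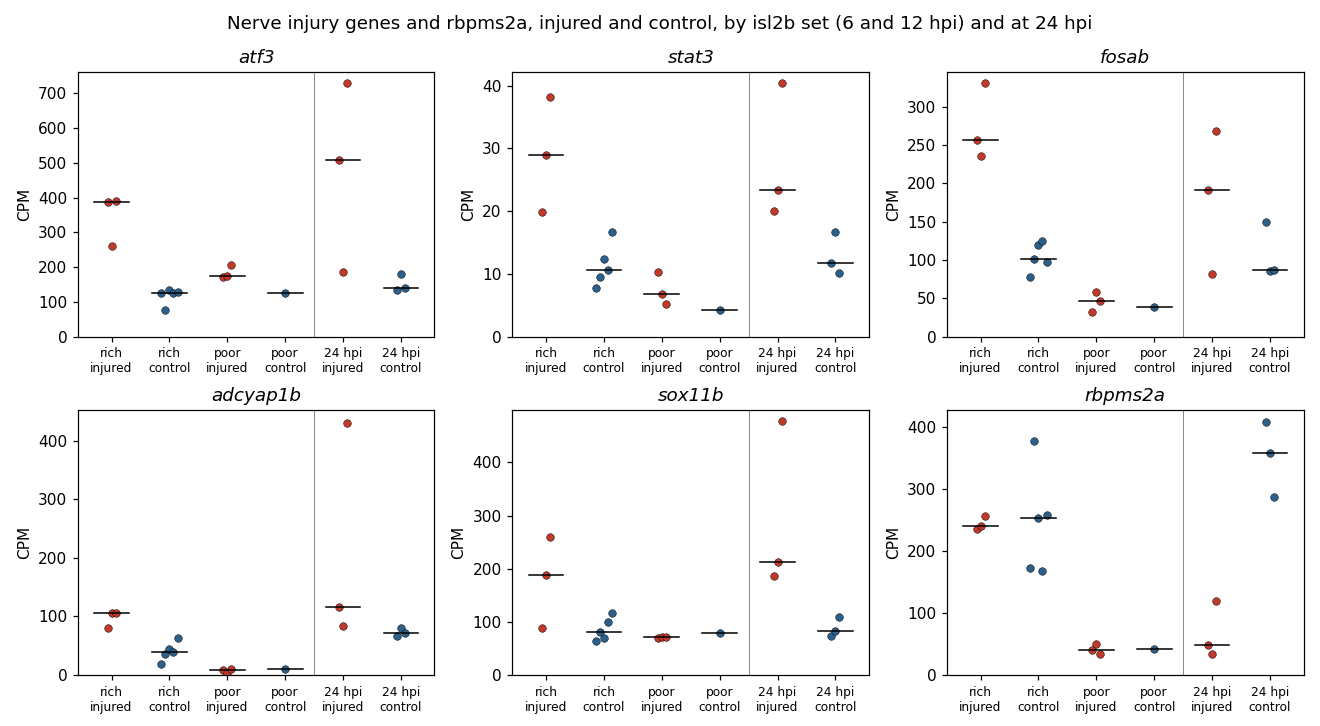
CPM of atf3, stat3, fosab, adcyap1b, sox11b and rbpms2a in each library, divided into injured and control libraries of the isl2b-rich set, of the isl2b-poor set and of 24 hpi (red injured, blue control, bars medians). The 3 injured isl2b-rich libraries lie above the 5 control ones for atf3, stat3, fosab and adcyap1b and not for rbpms2a; the poor set has 1 control library.

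Taking the log2 isl2b level of each library into edgeR's model as a covariate gave 31 genes at an adjusted p of 0.05 at 24 hpi (0.177% of 17526). Of the 31, 30 were higher in injured libraries. The covariate fit gave 0 at 6 hpi and 1 at 12 hpi (0.00571%). Without the covariate, 24 hpi gave 0 genes, but 50 from the libraries of that time alone and 201 with DESeq2. With the covariate DESeq2 gave 253, and edgeR with the replicate block gave 1. The contrast of 31 with 0 thus depends on the setting. The 31 included 16 genes of the lists, among them adcyap1b (log2 fold change 3.26 ± 0.56, edgeR adjusted p = 0.0281), atf3 (2.06 ± 0.38, adjusted p = 0.0368) and stat3 (2.23 ± 0.41, adjusted p = 0.0368). Jak1 (1.11 ± 0.20, edgeR adjusted p = 0.0295) and vmp1 (2.06 ± 0.37, edgeR adjusted p = 0.0291) were also among the 31. Both had overlapped between injured and control isl2b-rich libraries of 6 and 12 hpi. The 1 gene lower in injured libraries, emb, was of the nerve injury list too (−2.79 ± 0.41, edgeR adjusted p = 0.00989). The lists were assembled with earlier results of these data known, so the 16 are no independent support. The 24 hpi test without the covariate had 12 alternatives with edgeR or DESeq2, and this fit was 1 of them. Over these 12 the adjusted p ran from 0.0281 to 0.936 for adcyap1b, from 0.000936 to 0.505 for atf3 and from 0.0368 to 0.864 for stat3. It was under 0.05 in 1 for adcyap1b, in 3 for atf3, in 3 for jak1 and in 1 for stat3. For adcyap1b and stat3 that 1 was the covariate fit. The median of the 320 genes in this fit was 0.03 and 152 of them were negative. The fit took in the libraries of 6 and 12 hpi, whose isl2b levels chose these genes. A smaller fall of the 320 with the covariate is thus partly built in, and how much was not tested. The same holds for those of the 31 that are of the 320. Among them were adcyap1b, at 1.64 without the covariate, and emb, at −3.85 without it. Their adjusted p with the covariate are no independent support either. The number of calls rested on single libraries: leaving out injured replicate 3 of 24 hpi gave 2 and injured replicate 2 of 24 hpi gave 53. Leaving out injured replicate 1 of 12 hpi gave 15, and injured replicate 2 of 6 hpi gave 17. Leaving out control replicates 1, 2 and 3 of 24 hpi in turn gave 1, 20 and 2. Injured and control libraries did not overlap in isl2b at 24 hpi.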

How the data were processed

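The deposited tables hold, for each of the 18 libraries, raw read counts per gene, with gene symbols and positions; the values were not normalized by the authors, per the file headers and the whole-number values. Per the labels' protocols, cDNA was made with a SMART-Seq HT kit and libraries with Nextera XT. GRCz11 is named in the submitters' processing notes; the aligner, the counter and its use of strand are not given in the sources used here. Columns of samples not matched to a label numbered 0.

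CPM were computed from the counts over the column total. Genes with a median of 10 CPM or more in either set were compared by the difference of mean log2(CPM + 1), with a pseudocount of 1, and called at no overlap and a difference of 1 or more; the isl2b-rich and isl2b-poor sets come from measured values, so this carries no test. Injured and control libraries were tested at each time with edgeR 4.0.16 in R 4.3.3 (TMM, quasi-likelihood, all 18 libraries, 1 mean per group, minimum count 10, adjusted p of 0.05), and with DESeq2 1.42.0 as an alternative. The rule of no overlap and the edgeR test were run on simulated counts, and DESeq2 was not. Tables and figures used Python 3.11.15, pandas 2.3.3, numpy 2.4.6 and matplotlib 3.10.9.

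The genes named are the marker genes, members of the ganglion cell lists, up to 15 genes of the largest difference among those called higher, up to 10 called lower, up to 4 genes of each other list by median CPM, and atf3, jun, stat3, sox11a and jak1; others were named after their values were seen. Of 488 list entries in 21 lists, 7 were matched by identifier and 24 were not matched. The members and the lists were chosen with earlier results of these data known. Same-numbered libraries deviated together little: of 9 pairs, 2 had a correlation over 0.1 (range −0.07 to 0.13), so the numbers were not taken as pairs. With 3 libraries per group this check cannot show that no pair came from the same fish. Precision is set by depth, 15490375 to 28329194 counts per library, and by the number of libraries. Alternatives covered the isl2b limit, scaling, pseudocount, filter, time, injury, left-out libraries, replicate block and an isl2b covariate.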

Additional observations from a re-analysis of the deposited data

Results flagged for a closer look

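Of 92 sets of libraries looked at, 9 held a library that stood far from the others of its set. The nominal rate of the rule is about 1 in 20 for independent sets. These sets shared libraries, and some of their genes, isl2b among them, were chosen by their values in these data. That rate thus need not hold here. Among isl2b-poor libraries, control 12 hpi replicate 2 had 1.25% of counts in bipolar genes (others 0.940 to 0.959%) and 5.85 CPM of the nicotinic receptor gene chrnb5a (others 0.645 to 1.27 CPM). Injured 6 hpi replicate 3 had 12.9 CPM of the Wnt inhibitor gene dkk1a (others 1.78 to 3.16 CPM).

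Among isl2b-rich libraries, control 6 hpi replicate 2 stood apart in 4 values. It had 208 CPM of grin1a (others 75.7 to 135 CPM), 378 CPM of rbpms2a (others 167 to 258 CPM), 0.914% of counts in synaptic vesicle and SNARE genes (others 0.703 to 0.778%) and 0.0551% in pigment epithelium genes (others 0.00318 to 0.00737%). Injured 12 hpi replicate 2 had 0.0284% of counts in macrophage and microglia genes (others 0.00298 to 0.00987%). Injured 12 hpi replicate 3 had 339 CPM of sox11a (others 184 to 255 CPM).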

How the results depend on the processing

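The 17 named differences between isl2b-rich and isl2b-poor libraries kept their direction in 26 alternatives each, with 1.22 as the lowest value. The sets did not overlap for these genes. Alternatives that kept the limit of 100 CPM and the scaling to column totals could therefore not turn the direction. The number of genes higher in isl2b-rich libraries was 320 and became 147 and 51 with isl2b limits of 50 and 200 CPM, 228 with TMM or DESeq2 size factors, 505 with no filter, 570 in injured libraries alone and 578 at 6 hpi alone; 58 genes were lower in control libraries alone, where 1 library was isl2b-poor, 5 at 6 hpi, 2 at 12 hpi and 1 without the trimmed library and the smaller name set. Of the 147 and 51 genes at the other isl2b limits, 108 and 33 were among the 320. Leaving out 1 library gave 295 to 424 higher and 0 lower.

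List medians moved as follows. With a limit of 200 CPM they were 1.29 for ganglion cell transcription factors, 0.98 for RNA-binding, 1.24 for cytoskeleton, 1.05 for transmitter and surface and 0.54 for excitability genes. With TMM factors excitability was 0.65, synaptic 0.44, rod −0.58 and bipolar −0.12, and with DESeq2 size factors 0.65, 0.43, −0.58 and −0.12. A pseudocount of 5 CPM gave 1.16 for transcription factors and 1.21 for transmitter and surface genes. Injured libraries alone gave cytoskeleton 2.12, transmitter and surface 1.97, excitability 1.06, Mueller glia 0.76 and nerve injury 1.05, against 0.57 with all libraries. Control libraries alone gave transcription factors 1.35, cytoskeleton 1.099, transmitter and surface 0.70, synaptic 0.32, motors 0.30, bipolar −0.15, lens, cornea and oligodendrocyte 0.35 and nerve injury 0.19. Bipolar was 0.42 at 6 hpi and −0.16 at 12 hpi, where synaptic was 0.35 and amacrine 1.21. Synaptic was 0.38 within labelled groups and 0.43 without the trimmed library and the smaller name set. Leaving out 1 library gave 0.70 to 1.08 for excitability and 0.47 to 0.69 for synaptic genes.

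Injured against control gave 0 calls with edgeR at each time, against 92, 8 and 201 with DESeq2 at 6, 12 and 24 hpi, 6 at 6 hpi and 50 at 24 hpi with only the libraries of the time, and 2 at 24 hpi with no filter. A replicate block gave 1 call at 12 hpi and 0 at 6 and 24 hpi. Since the numbers were not taken as pairs, no weight is put on it. Leaving out 1 library gave 0 to 4 at 24 hpi, the 4 arising without injured replicate 2 and 1 arising without control replicate 3 of that time. With isl2b as a covariate there was 1 call at 12 hpi and 31 at 24 hpi. That 31 was 47 with rbpms2a and rbpms2b as the covariate, 253 in DESeq2, 1 with the replicate block, and 1 to 53 leaving out 1 library (15 without injured replicate 1 of 12 hpi). The 24 hpi log2 fold changes of isl2b (0.0068), cart3 (0.46), ppp1r1c (1.95), ndnfl (0.77) and zgc:158291 (0.49) turned positive with the covariate; isl2b is the covariate itself, and for the other 4 genes the cause was not tested.

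Inside isl2b-rich libraries, injured against control gave 23 higher and 0 lower, 20 higher with TMM factors, 34 higher and 4 lower without the smaller name set, 69 higher and 36 lower at 12 hpi alone, and 23 to 57 higher and 1 to 8 lower leaving out 1 library. Of the 69, 11 were among the 23. The alternatives without the trimmed library and the smaller name set, within labelled groups, of the covariate fit itself and inside the sets were chosen after seeing the data. Depth overlapped between the sets, and the 4 isl2b-poor libraries limit the precision of every difference.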
